A study of Mus musculus with 207 samples.

Results

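The Cyp4a genes of the mouse encode omega-hydroxylases, cytochrome P450 enzymes of the endoplasmic reticulum that oxidise the far end of fatty acid chains. The rows of 6 named members (Cyp4a10, Cyp4a14, Cyp4a31, Cyp4a32, Cyp4a12a and Cyp4a12b) were taken from the liver and jejunum tables by gene symbol, 6 of 55536 genes in each table. In liver all 6 passed the filter on low counts and were tested. In jejunum 2 did, Cyp4a10 and Cyp4a32, so tests there cover these 2 alone.

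The tissues came from C57BL/6 mice on 1 of 6 diets, which joined a protein source (CAS or WPI, at protein level 30 in every diet) to a fat level (FAT-20, FAT-40 or FAT-55). The labels spell out neither abbreviation and give no unit. From what is known of the study, CAS is taken to be casein and WPI whey protein isolate, and its question is how the protein in a diet changes what fat does to body weight. Liver and jejunum were sequenced from the same 70 mice, with 11, 12 and 11 mice on CAS and 12, 12 and 12 on WPI, in order of rising fat. Age, sex and housing are not in the labels, no allele or drug is named, and all groups share the strain and the protein level.

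RNA libraries held 21 to 41.0 M reads (M, 1e6) on genes in liver and 17.5 to 23.8 M in jejunum. Levels are given in CPM, a gene's share of the reads in its library in parts per 1e6, after scaling for library composition. All 10 hepatocyte markers lay at 1 CPM or more in liver (summed level 81500 to 158000 CPM), and all 12 enterocyte markers did in jejunum (26500 to 65100 CPM). The Y-linked Ddx3y was at 56.2 to 115 CPM in liver and 46.1 to 77.0 CPM in jejunum, and Xist did not exceed 1.2 CPM in any library. One liver library (WPI FAT-40 replicate 2) carried 1110 CPM of pancreatic acinar RNA, and 2 jejunum libraries (WPI FAT-20 replicates 1 and 9) carried the ileal gene Fabp6 at 177 and 282 CPM. That liver library, WPI FAT-55 replicate 2 in liver and CAS FAT-55 replicate 11 in jejunum also stood apart from their own groups (median r of 0.97, 0.965 and 0.964, against 0.981 over all livers and 0.977 over all jejunum libraries). Where leaving them out ended a call of a member that the text names, the value is given beside it. Bulk RNA cannot tell fewer cells of a type from less RNA per cell.

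Omega-hydroxylation is the opening step of a route that turns long fatty acids into dicarboxylic acids, which are then shortened in peroxisomes. In rodent liver, Cyp4a10 and Cyp4a14 are textbook targets of the fatty acid receptor PPARa, which pairs with RXR on DNA. Cyp4a12a and Cyp4a12b differ from them in being male-biased genes that follow androgen and pulsed growth hormone, and the Cyp4a12a enzyme makes the vasoactive lipid 20-HETE from arachidonic acid. Less is known of Cyp4a31 and Cyp4a32, which are close copies of Cyp4a10.

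The genes lie in 1 cluster of 322.6 kb on chromosome 4 (GRCm38, GENCODE M21), between 115299046 and 115621602. Cyp4a12a (115299046 to 115332815) and Cyp4a12b (115411624 to 115439034) come first, followed by Cyp4a14 (115486200 to 115496142), Cyp4a10 (115518264 to 115533649), Cyp4a31 (115563649 to 115579015) and Cyp4a32 (115600969 to 115621602). Cyp4a14 is on the minus strand and the others are on the plus strand. Because the copies are so alike, the readings of single members rest on the few bases that differ, so 60 coding bases of exon 6 are shown for each member, with capitals at bases that differ from the member nearest in sequence within this stretch.
Cyp4a10: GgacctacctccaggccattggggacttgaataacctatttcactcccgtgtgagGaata
Cyp4a32: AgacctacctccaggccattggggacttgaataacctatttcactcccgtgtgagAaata
Cyp4a31: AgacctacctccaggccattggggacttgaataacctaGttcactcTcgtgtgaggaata
Cyp4a12a: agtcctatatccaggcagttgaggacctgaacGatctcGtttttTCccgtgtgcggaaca
Cyp4a12b: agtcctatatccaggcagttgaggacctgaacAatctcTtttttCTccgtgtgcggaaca
Cyp4a14: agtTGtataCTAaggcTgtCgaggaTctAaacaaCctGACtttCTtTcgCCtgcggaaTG

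In that stretch (chr4:115524733-115524792 in Cyp4a10, plus strand) Cyp4a10 differed from Cyp4a32 at 2 bases and from Cyp4a31 at 3. Cyp4a12a (chr4:115326636-115326695) and Cyp4a12b (chr4:115432889-115432948) differed at 4, while Cyp4a14 (chr4:115492168-115492227, minus strand) differed from its nearest member at 20. Over the whole coding sequence, Cyp4a12a and Cyp4a12b were 98.5% identical (23 differing bases), Cyp4a10 and Cyp4a32 97.2%, Cyp4a10 and Cyp4a31 96.6%, and Cyp4a31 and Cyp4a32 96.0%. The remaining pairs shared 75.4% to 80.2%. Of all 100-base windows in the transcripts, 100% of those of Cyp4a14 matched no other gene, 91.8% for Cyp4a31, 87.3% for Cyp4a10, 79.9% for Cyp4a32, 64.2% for Cyp4a12a and 63.8% for Cyp4a12b. With 50-base windows the shares were lower, at 99.8%, 78.2%, 69.5%, 53.2%, 51.1% and 50.6% in the same order. The deposited counts hold reads at several places in an entry of their own, so reads that fit several copies equally were credited to none. Values of the close copies are therefore uncertain where reads were dropped or misplaced between them, and Cyp4a14 is the member least open to this. In jejunum the Cyp4a31 count never exceeded 1.45% of the Cyp4a10 count. In 1 liver Cyp4a12b had 0.909% of the Cyp4a12a count. Cyp4a12b also overlaps an antisense processed pseudogene, Gm12837, and the strand setting of the counting is not given in the sources used here.

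In liver, Cyp4a14 and Cyp4a10 were the 2 most abundant members per kilobase of exon in 70 of 70 mice. Across all livers the median level per kilobase was 560 CPM for Cyp4a14 and 538 CPM for Cyp4a10, and Cyp4a14 was the higher of the pair in 52 of 70. Cyp4a12a followed at 50.1 CPM per kilobase, Cyp4a32 at 40.4, Cyp4a12b at 17.9 and Cyp4a31 at 9.72. As a ratio of highest to lowest, the Cyp4a31 range was the widest among Cyp4a10 and its close copies, from 1.63 to 101 CPM per kilobase. Cyp4a32 stayed between 19.5 and 70.5, although its annotated model holds hardly any untranslated sequence, so reads there were not credited to it.

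In liver the members were lower at higher fat. On CAS 6 of 6 were called lower at FAT-40 than at FAT-20, where 30.2% of the 15051 genes tested were called in either direction, and 6 of 6 at FAT-55 (background 43.3%). On WPI 3 of 6 were lower at FAT-40 (background 6.54%) and 5 of 6 at FAT-55 (26.6%). The median log2 fold change of the 6 members was -2.13 and -1.74 on CAS and -1.08 and -1.13 on WPI, and that of all genes lay near 0 in each. Over sums of mice that share an identifier stem (all but its last digit, 24 stems), 5 of 6 were lower at FAT-40 and 6 of 6 at FAT-55 on CAS, and 3 of 6 at each level on WPI. Of 17545 genes, those sums called 1225 and 2319 lower on CAS and 20 and 821 on WPI. In the same order 1529, 2726, 38 and 1350 were called higher.

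Summed levels of cell type markers also differed between the diets in these livers. The summed level of the 10 hepatocyte markers had medians of 115000, 104000 and 92600 CPM on CAS and 112000, 107000 and 104000 CPM on WPI, in order of rising fat, and 6 of 10 were called lower at FAT-55 on CAS and 2 of 10 on WPI. The summed level of 8 adipose markers, of which 4 passed the filter, had medians of 1440, 2960 and 3070 CPM on CAS and 1260, 2690 and 3280 CPM on WPI, and 4 and 2 were called higher at FAT-55. Over all genes, 43.3% on CAS and 26.6% on WPI were called in either direction at FAT-55 against FAT-20. The adipose list includes Cidec, which is also in the list of PPARa targets. The ranges over all livers were 81500 to 158000 CPM for hepatocyte and 337 to 4570 CPM for adipose markers. The part of these markers in the fall of the members was not tested.

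Cyp4a14, the most abundant member, ran on CAS from 2169 to 8074 CPM (median 3366) at FAT-20, from 410.4 to 1331 (median 538) at FAT-40 and from 775 to 1461 (median 1154) at FAT-55. On WPI it ran from 3600.0 to 7279 CPM (median 5273) at FAT-20, from 519 to 2724 (median 1336) at FAT-40 and from 1043 to 2161 (median 1623) at FAT-55. Every FAT-20 liver stood above every FAT-40 and FAT-55 liver on the same protein. By edgeR's quasi-likelihood test Cyp4a14 fell 6.02-fold from FAT-20 to FAT-40 on CAS (log2 fold change -2.59 ± 0.22 SE, adjusted p = 3.67e-14) and 3.93-fold on WPI (-1.97 ± 0.21, adjusted p = 9.65e-10). From FAT-20 to FAT-55 it fell 3.61-fold on CAS (-1.85 ± 0.22, adjusted p = 7.84e-10) and 3.13-fold on WPI (-1.65 ± 0.21, adjusted p = 2.31e-08).

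Cyp4a10, the other abundant PPARa target, ran on CAS from 1431 to 3637 CPM (median 2274) at FAT-20, from 322 to 1027 (median 545) at FAT-40 and from 478 to 1169 (median 712) at FAT-55. On WPI the ranges were 1451 to 3218 CPM (median 2208), 482 to 1576 (median 970.5) and 939.8 to 1836 (median 1173). On CAS the FAT-20 livers did not overlap those at higher fat. On WPI the ranges touched, yet every mouse at FAT-40 and FAT-55 lay below the FAT-20 median. Cyp4a10 fell 4.01-fold at FAT-40 on CAS (-2.004 ± 0.178 SE, adjusted p = 9.8e-14) and 2.27-fold on WPI (-1.18 ± 0.17, adjusted p = 3.91e-06). At FAT-55 the falls were 3.08-fold on CAS (-1.62 ± 0.18, adjusted p = 1.03e-10) and 1.82-fold on WPI (-0.87 ± 0.17, adjusted p = 8.26e-05).

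Among the close copies of Cyp4a10, Cyp4a31 moved over the widest range and Cyp4a32 over the narrowest. Cyp4a31 ran on CAS from 57.5 to 168 CPM (median 109.7) at FAT-20, from 4.097 to 16.5 (median 8.66) at FAT-40 and from 6.74 to 15.7 (median 11.9) at FAT-55. On WPI it ran from 84.5 to 254 CPM (median 130.3), from 11.3 to 109 (median 31.5) and from 15.8 to 34.8 (median 21.9). Groups at FAT-20 and at higher fat overlapped in 1 case, FAT-40 on WPI. Cyp4a31 fell 10.8-fold at FAT-40 on CAS (-3.43 ± 0.27 SE, adjusted p = 8.63e-16), 3.67-fold on WPI (-1.88 ± 0.24, adjusted p = 2.06e-07), 9.06-fold at FAT-55 on CAS (-3.18 ± 0.27, adjusted p = 3.83e-14) and 6.66-fold on WPI (-2.74 ± 0.25, adjusted p = 1.49e-12).

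Cyp4a32 ran on CAS from 65.1 to 99.6 CPM (median 83.7) at FAT-20, from 29.9 to 57.1 (median 44.9) at FAT-40 and from 35.6 to 66.8 (median 52.6) at FAT-55. Its WPI range was 44.9 to 108 CPM (median 72.8), from 37.4 to 105 (median 67.9) and from 43.6 to 72.4 (median 59.1). On CAS the FAT-40 livers lay wholly under the FAT-20 livers, and on WPI the 3 groups overlapped. It fell 1.86-fold at FAT-40 on CAS (-0.90 ± 0.13 SE, adjusted p = 1.31e-07), 1.60-fold at FAT-55 on CAS (-0.68 ± 0.13, adjusted p = 2.36e-05) and 1.31-fold at FAT-55 on WPI (-0.39 ± 0.12, adjusted p = 0.0137, or 0.174 over stem sums). At FAT-40 on WPI the fold was 0.930 of FAT-20 (95% interval 0.785 to 1.10, adjusted p = 0.694). The stem means in that FAT-40 group were 99.5, 73.0, 58.5 and 52.6 CPM.

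Cyp4a12a and Cyp4a12b, the male-biased members, differed from each other although their coding sequences are nearly the same. Cyp4a12b ran on CAS from 62.3 to 162 CPM (median 88.8) at FAT-20, from 6.44 to 44.9 (median 20.6) at FAT-40 and from 0.833 to 30.1 (median 7.08) at FAT-55. WPI livers ran from 53.7 to 152 CPM (median 95.4), from 6.06 to 87.7 (median 57.8) and from 2.87 to 67.1 (median 38.0). The CAS groups at higher fat lay wholly below FAT-20, and the WPI groups overlapped, with 3 of the 12 FAT-55 livers under 5 CPM. Cyp4a12b fell 4.75-fold at FAT-40 (-2.25 ± 0.45 SE, adjusted p = 6.98e-05) and 11.9-fold at FAT-55 (-3.58 ± 0.49, adjusted p = 2.57e-08) on CAS. On WPI it fell 2.64-fold at FAT-55 (-1.40 ± 0.43, adjusted p = 0.0105, or 0.201 over stem sums), and the FAT-40 value of -0.98 ± 0.42 did not pass (adjusted p = 0.162).

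Cyp4a12a ran on CAS from 102 to 291 CPM (median 169) at FAT-20, from 25.5 to 240.1 (median 88.3) at FAT-40 and from 9.34 to 162 (median 67.8) at FAT-55. On WPI it ran from 67.5 to 387 CPM (median 219), from 42.5 to 179 (median 117) and from 57.6 to 171 (median 124). Groups overlapped in every comparison. The gene fell 1.82-fold at FAT-40 on CAS (-0.86 ± 0.31 SE, adjusted p = 0.0279, or 0.156 over stem sums and 0.0534 with no filter on low counts) and 2.49-fold at FAT-55 on CAS (-1.32 ± 0.32, adjusted p = 0.00065). On WPI the values were -0.65 ± 0.30 at FAT-40 (adjusted p = 0.199) and -0.75 ± 0.30 at FAT-55 (adjusted p = 0.0582), and neither passed. Cyp4a12b counts stood at a median of 55.5% of the Cyp4a12a counts on CAS FAT-20 and 8.92% on CAS FAT-55, against 50.5% and 35.2% on WPI.

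**Figure D1:**
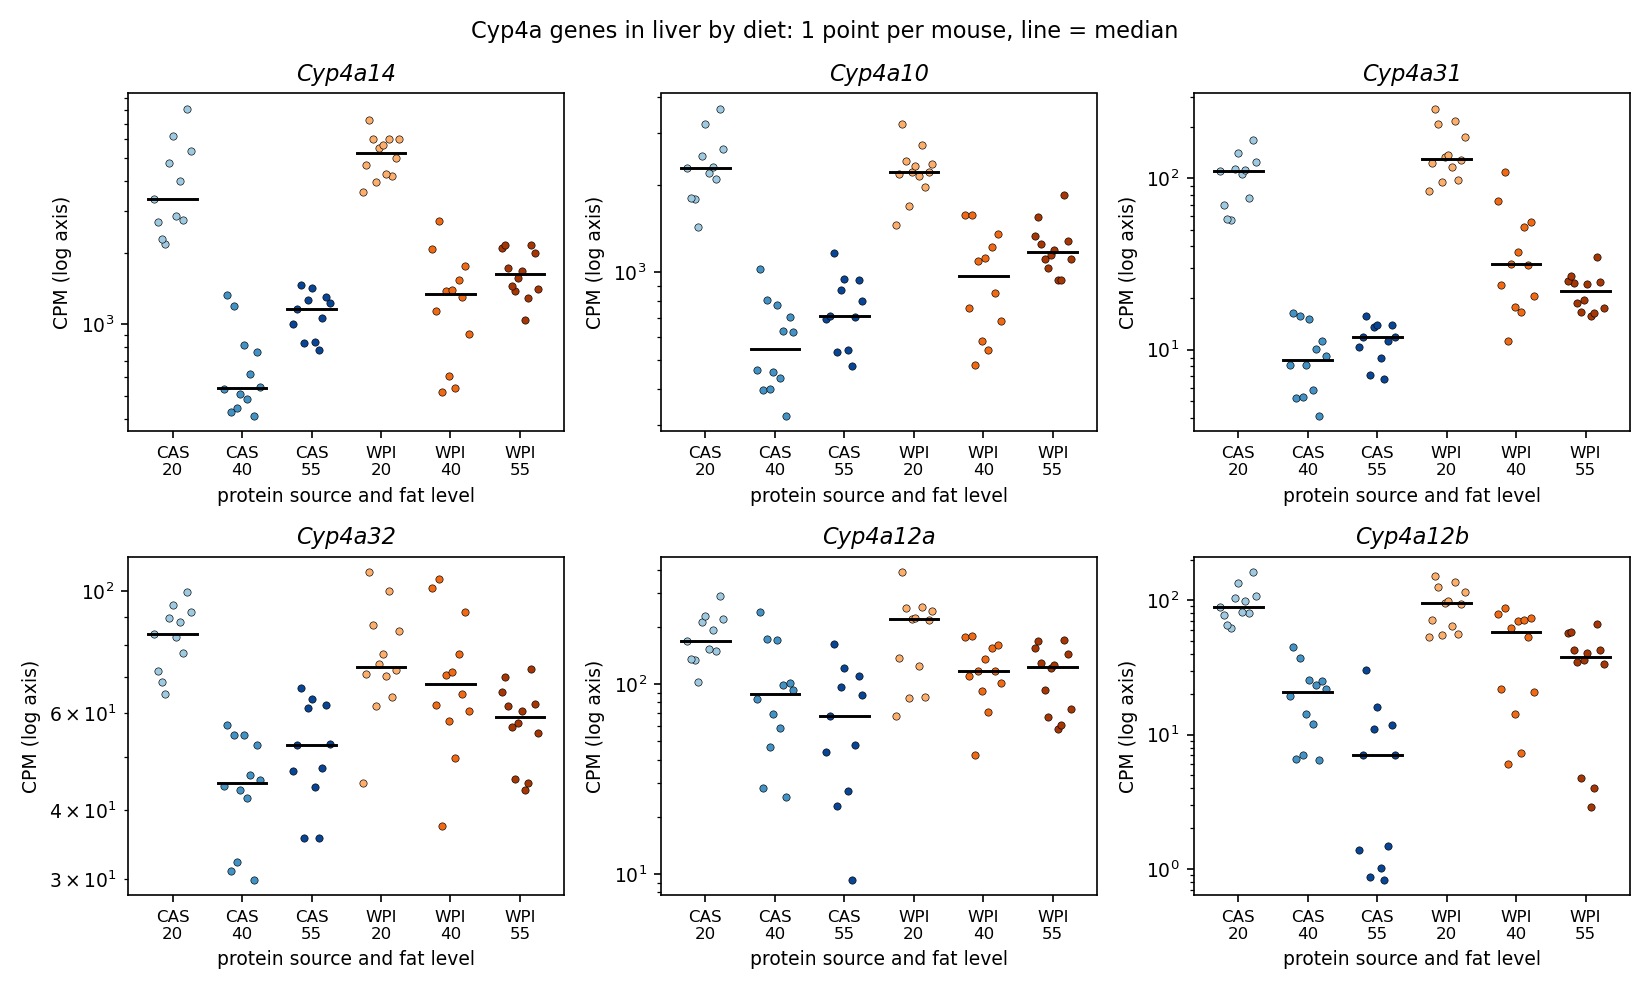
Level of each Cyp4a gene in liver (CPM, log axis) by protein source and fat level, with 1 point per mouse and a line at the median of 11 or 12 mice. On CAS all 12 FAT-40 livers lie below all 11 FAT-20 livers for Cyp4a14, Cyp4a10, Cyp4a31, Cyp4a32 and Cyp4a12b, and Cyp4a12a overlaps.

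Between FAT-40 and FAT-55, 1 of 6 members was called on each protein. On CAS Cyp4a14 rose 1.67-fold (0.74 ± 0.21 SE, adjusted p = 0.0325; background 3.6%), and on WPI Cyp4a31 fell 1.81-fold (-0.86 ± 0.24, adjusted p = 0.0393; background 2.29%). Both calls ended over stem sums (adjusted p = 0.306 and 0.453), where 0 of 17545 genes were called on either protein. The Cyp4a31 call ended also without the 2 livers that stood apart (adjusted p = 0.131).

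Averaged over fat levels, 5 of 6 members were higher on WPI than on CAS, where 14.7% of all genes were called. Cyp4a31 was higher by 1.18 ± 0.14 (log2 ± SE, adjusted p = 3.53e-08), Cyp4a12b by 1.10 ± 0.25 (0.00141), Cyp4a14 by 0.63 ± 0.12 (0.000139), Cyp4a10 by 0.46 ± 0.10 (0.000759) and Cyp4a32 by 0.24 ± 0.07 (0.0191). Cyp4a12a stood at 0.34 ± 0.18 (adjusted p = 0.196). Over stem sums the averaged difference of Cyp4a12b had an adjusted p of 0.116 and that of Cyp4a32 of 0.232. Those sums called 284 of 17545 genes higher and 427 lower.

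At FAT-20, edgeR called 0 of 6 members between the proteins (1 at an unadjusted p under 0.05, 0 by DESeq2), and the background was 0.512%. At FAT-40, 4 of 6 were higher on WPI (background 8.21%). Cyp4a31 was 4.19-fold higher (2.07 ± 0.25 SE, adjusted p = 7.13e-08), with all 12 WPI livers above the CAS median. Its means by WPI stem were 72.2, 45.0, 22.8 and 20.2 CPM. The stem at 72.2 CPM held replicates 1 to 3, whose unmapped shares of 9.71% to 10.77% were the highest among the livers. Cyp4a14 was 1.97-fold higher (0.97 ± 0.21, adjusted p = 0.0014), Cyp4a10 1.68-fold (0.75 ± 0.17, adjusted p = 0.00283) and Cyp4a32 1.59-fold (0.67 ± 0.13, adjusted p = 0.000296). Of these 4, the last 3 lost their calls over stem sums (adjusted p = 0.0819, 0.0608 and 0.0913). Those sums called 22 of 17545 genes higher and 42 lower. Cyp4a12b at 1.22 ± 0.43 did not pass (adjusted p = 0.0635), nor did Cyp4a12a at 0.29 ± 0.30 (adjusted p = 0.619).

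At FAT-55, 3 of 6 were higher on WPI (background 14.5%). Cyp4a12b was 4.37-fold higher (2.13 ± 0.46 SE, adjusted p = 0.00116), with 9 of 12 WPI livers above the CAS median. Cyp4a31 was 1.94-fold higher (0.95 ± 0.25, adjusted p = 0.00679) and its groups did not overlap. Cyp4a10 was 1.61-fold higher (0.69 ± 0.17, adjusted p = 0.00502), with all 12 WPI livers above the CAS median. Over stem sums these 3 calls ended (adjusted p = 0.106, 0.139 and 0.0515), where 76 of 17545 genes were called higher and 135 lower. Cyp4a14 was at 0.57 ± 0.21 (adjusted p = 0.059), Cyp4a12a at 0.65 ± 0.31 (0.15) and Cyp4a32 at 0.16 ± 0.13 (0.415).

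**Figure D2:**
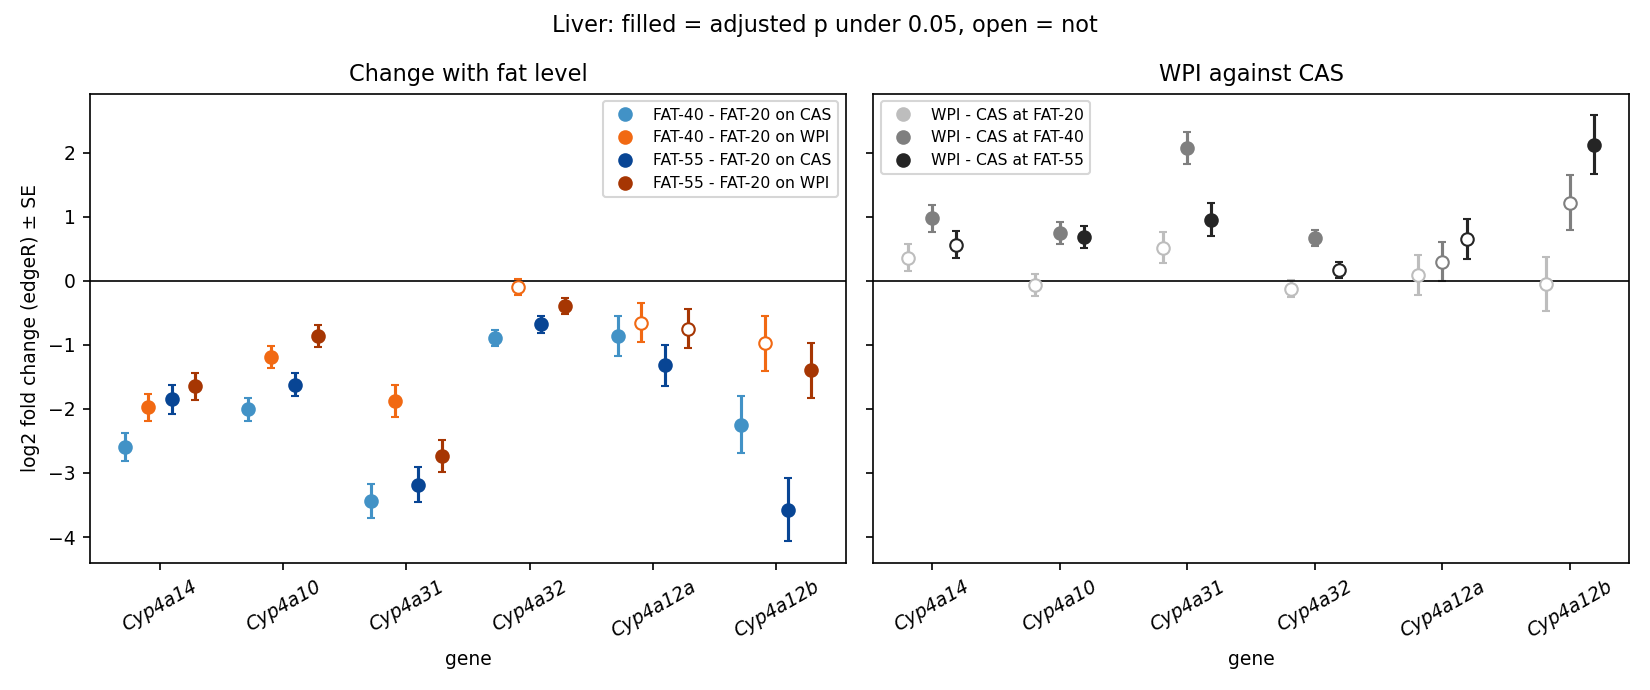
Log2 fold changes in liver with their SE by edgeR, for higher fat against FAT-20 on each protein (left) and for WPI against CAS at each fat level (right); filled points have an adjusted p under 0.05. All points on the left lie below 0, and the 6 FAT-20 points on the right are open.

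Whether the fat response itself differed between the proteins was tested as an interaction. From FAT-20 to FAT-40, 2 of 6 members differed (background 1.49%): the fall was smaller on WPI by 1.56 ± 0.34 (log2 ± SE) for Cyp4a31 (adjusted p = 0.0106) and by 0.79 ± 0.18 for Cyp4a32 (adjusted p = 0.0119). Cyp4a10 stood at 0.82 ± 0.24 (adjusted p = 0.063), Cyp4a14 at 0.61 ± 0.29 (0.283), Cyp4a12b at 1.27 ± 0.60 (0.275) and Cyp4a12a at 0.21 ± 0.43 (0.862). From FAT-20 to FAT-55, 2 of 6 differed (background 6.82%): the fall was smaller on WPI by 2.18 ± 0.62 for Cyp4a12b (adjusted p = 0.0254) and by 0.76 ± 0.25 for Cyp4a10 (adjusted p = 0.0454). None of these 4 calls held with stem as a random effect (adjusted p from 0.0966 to 0.178) or over stem sums (0.203 to 0.468). Over all genes, stem sums called 0 of 17545 at FAT-40, and 2 higher and 0 lower at FAT-55. Stem as a random effect called 0 higher and 2 lower of 15051 at FAT-40, and 49 and 61 at FAT-55. The FAT-55 calls also ended with a score of bile duct and immune cell markers as a covariate, where the difference was 0.57 for Cyp4a10 (adjusted p = 0.306) and 2.02 for Cyp4a12b (0.13). That fit called 65 of 15051 genes higher and 51 lower. With the counts of Cyp4a12a and Cyp4a12b summed, the FAT-55 difference was 0.85 (adjusted p = 0.214). The summed level of those 10 markers had group medians of 255, 321 and 382 CPM on CAS and 338, 325 and 332 CPM on WPI, in the same order, with a range over all livers of 144 to 670 CPM. Without the 2 livers that stood apart, Cyp4a10 at FAT-55 had an adjusted p of 0.0565.

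Within a diet, Cyp4a12b varied with the identifier stem more than the other members. Its correlation between mice of the same stem was 0.735, against 0.532 for Cyp4a32, 0.517 for Cyp4a31, 0.298 for Cyp4a12a, 0.195 for Cyp4a14 and 0.061 for Cyp4a10, and 0.16 as the consensus over all genes. On WPI FAT-55, 3 mice of 1 stem had 2.87 to 4.76 CPM of Cyp4a12b, and the other 9 had 33.7 to 67.1 CPM. On CAS FAT-55, 1 stem of 3 mice had 0.833 to 1.39 CPM and another had 11 to 30.05 CPM. Stems on FAT-20 overlapped, with means from 69.4 to 113 CPM over both proteins. The labels do not say what a shared stem means. Each stem held a single diet and each diet 4 stems, so diets were also compared against the spread between stems, by sums over a stem and with stem as a random effect.

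**Figure D3:**
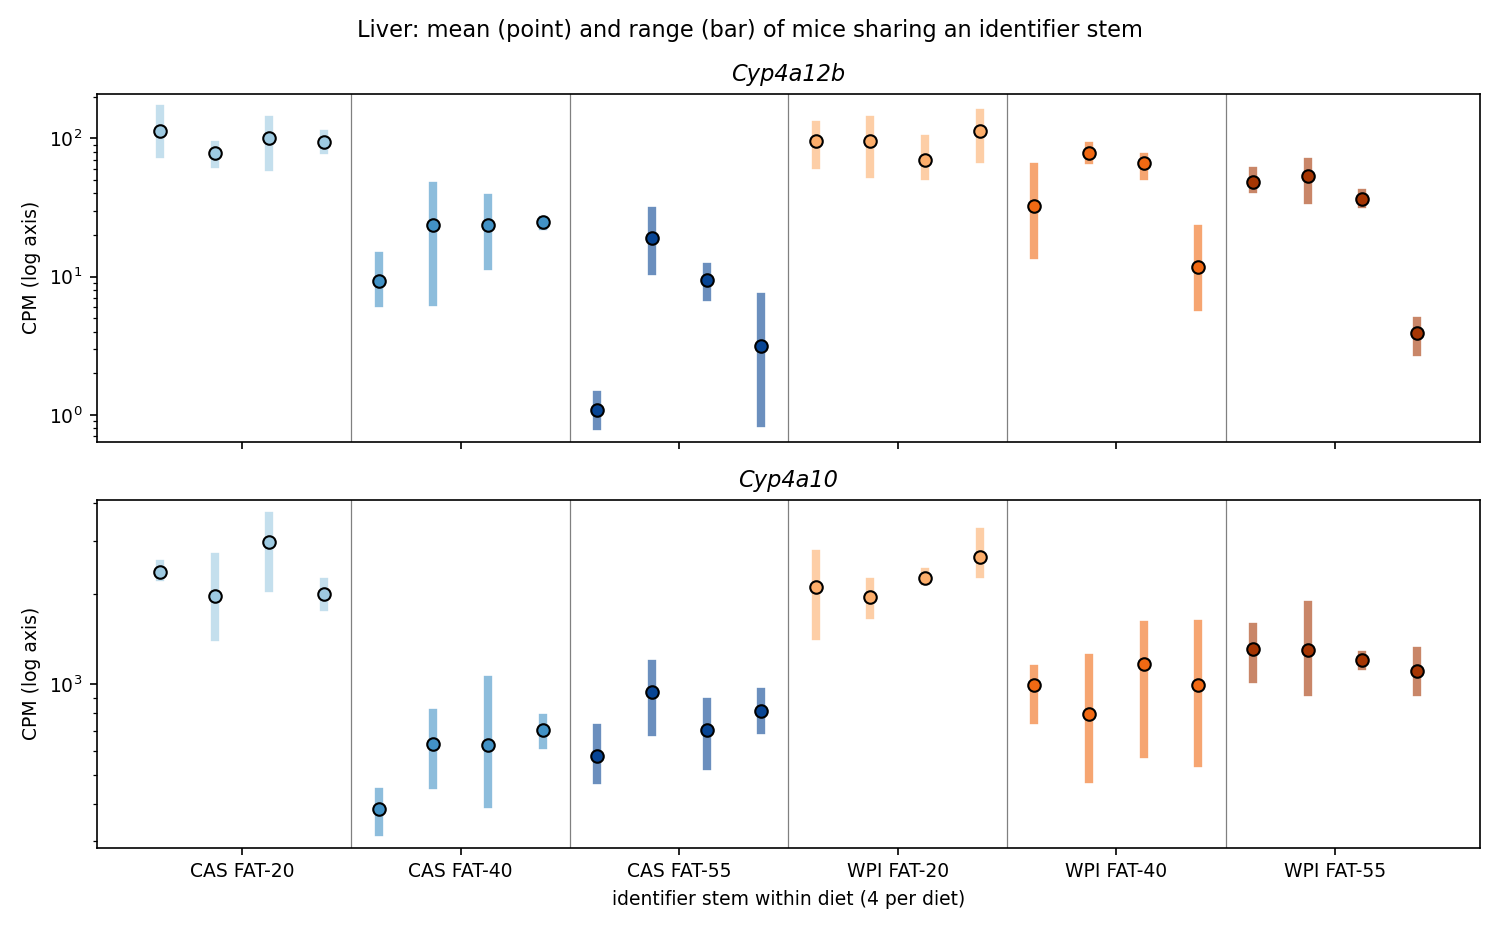
Mean (point) and range (bar) in liver of the 2 or 3 mice sharing an identifier stem, in CPM on a log axis, for Cyp4a12b (top) and Cyp4a10 (bottom), with 4 stems in each diet. For Cyp4a12b 1 WPI FAT-55 stem lies at 2.87 to 4.76 CPM and the other 3 at 33.7 to 67.1 CPM.

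The share of all Cyp4a reads that came from Cyp4a12a and Cyp4a12b together had group medians of 4.52%, 9.36% and 4.07% on CAS and 3.46%, 6.16% and 4.52% on WPI, in order of rising fat. Its widest range was 2.50% to 18.5%, on CAS FAT-40. None of 5 differences between group means passed a two-sided permutation test (100000 resamples, adjusted over the 5). The step from FAT-20 to FAT-40, with group means of 4.39% and 8.85% on CAS and 3.62% and 7.87% on WPI, was not among those tested. WPI minus CAS was -0.763 percentage points at FAT-20 (adjusted p = 0.468), -0.972 at FAT-40 (0.637) and 0.993 at FAT-55 (0.468). FAT-55 minus FAT-20 was -0.467 on CAS (0.637) and 1.29 on WPI (0.468).

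With diet means subtracted, the members were compared with each other across the 70 livers. This is a description of log2 CPM values that share libraries and depth. Nearest to each other were Cyp4a10 and Cyp4a14 (r = 0.749), Cyp4a31 and Cyp4a32 (r = 0.66), and Cyp4a12a and Cyp4a12b (r = 0.495). These pairs were not separate, as Cyp4a10 and Cyp4a31 had r = 0.515 and Cyp4a12b and Cyp4a32 had r = 0.484. Cyp4a14 showed r = -0.003 with Cyp4a32 and -0.241 with Cyp4a12b. Among 12360 genes at 1 CPM or more on average, the genes most like Cyp4a10 included Retsat (r = 0.833), a retinol saturase, and the fatty acid oxidation genes Hadha (0.783), Acad11 (0.769), Acadm (0.757) and Hadhb (0.743). Cyp4a14 was most like Retsat (0.712), Acadm (0.665), the acyl-CoA thioesterase Acot1 (0.648), D17Wsu92e (0.619), Hsd17b4 (0.619) and Ube2e2 (0.61).

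Other genes stood nearest the remaining members. Cyp4a12b was most like the urinary protein gene Mup14 (r = 0.851), the steroid dehydrogenase Hsd3b5 (0.825), Mup20 (0.799), Susd4 (0.797), Mup7 (0.787) and Cyp2d9 (0.784). Cyp4a12a was nearest Cyp2d9 (0.515), Cyp2f2 (0.485), Gnai1 (0.485), Mup14 (0.475), Mup20 (0.453) and Grina (0.422). Cyp4a32 was nearest Mup14 (0.675), Mup11 (0.673), Apom (0.657), Tff3 (0.653), Gjc3 (0.648) and Rsad1 (0.638). For Cyp4a31 they were the phospholipid transporter Abcb4 (0.677), the fatty acid transporter Slc27a2 (0.672), Rsad1 (0.669), B930025P03Rik (0.657), Tbx3os1 (0.646) and Gm45044 (0.637). The Mup genes are near-identical copies themselves, so their single values are uncertain too. The clock gene Arntl varied from 0.814 to 15.1 CPM between livers, and its relation with the 6 members within diets ran from r = -0.283 (Cyp4a14, rho = -0.262, permutation p = 0.034 and 0.041) to 0.117 (Cyp4a12b). No r or rho passed after adjustment over the 10 relations computed (lowest adjusted p = 0.2), and without the 2 livers farthest in Arntl the Cyp4a14 value was -0.239.

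**Figure D4:**
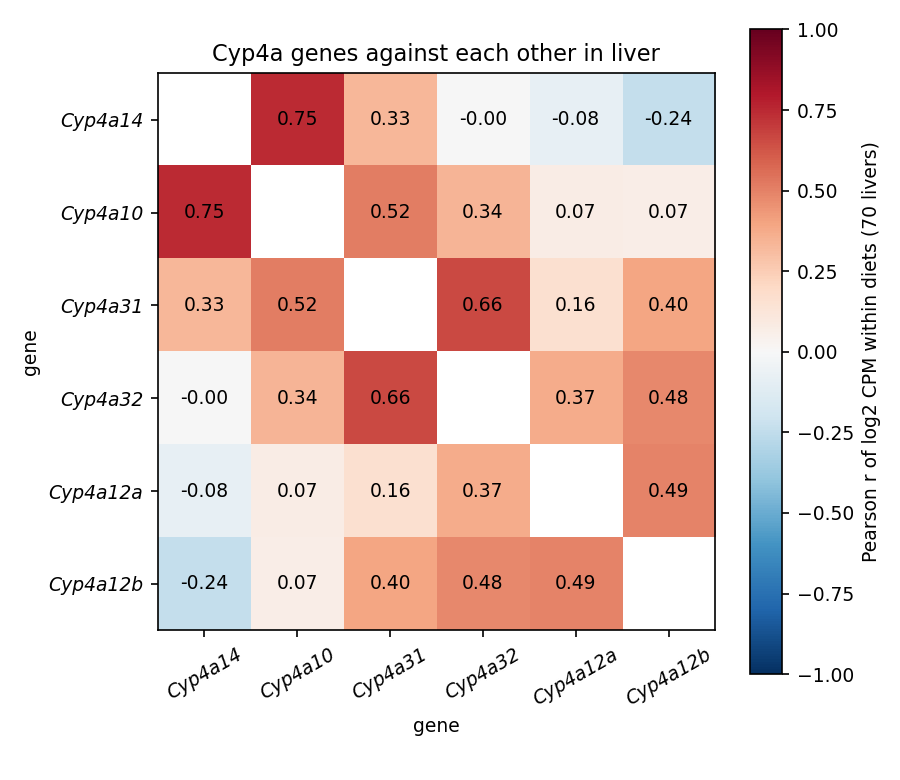
Pearson r of log2 CPM between Cyp4a genes over 70 livers after each diet's mean was subtracted, from -1 (blue) to 1 (red). The highest values are 0.749 for Cyp4a10 with Cyp4a14 and 0.66 for Cyp4a31 with Cyp4a32.

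The receptor itself showed no called change in liver. Ppara had group means of 232 to 246 CPM, with a log2 fold change from FAT-20 to FAT-55 of -0.04 ± 0.11 SE on CAS (adjusted p = 0.802) and 0.03 ± 0.10 on WPI (0.855). Its other reference targets moved unlike each other. Acot1 fell by 1.58 ± 0.21 on the log2 scale on CAS (adjusted p = 1.65e-08) and by 1.06 ± 0.20 on WPI (4.41e-05). Pdk4, a kinase that restrains glucose oxidation, rose by 0.82 ± 0.33 on CAS (adjusted p = 0.0363, or 0.152 over stem sums) and stood at -0.10 ± 0.32 on WPI (0.86). Fgf21 was at -0.52 ± 0.39 on CAS (adjusted p = 0.28) and -0.46 ± 0.38 on WPI (0.394).

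Of 49 other PPARa targets tested, 23 were lower and 10 higher at FAT-55 than at FAT-20 on CAS (median log2 fold change -0.27, against about 0 for all genes), and 10 were lower and 6 higher on WPI (median -0.08). The shares of all genes called in either direction were 43.3% and 26.6%. Retsat, Hadha and Hadhb were lower on both proteins, Retsat by -1.35 ± 0.14 on CAS (adjusted p = 1.96e-11) and -0.87 ± 0.14 on WPI (1.66e-06). Cidec, a lipid droplet protein in the same list, went the other way on CAS (2.40 ± 0.44, adjusted p = 1.1e-05). Of 31 genes of the steps after omega-hydroxylation, 11 were lower and 4 higher on CAS, and 4 were lower and 5 higher on WPI, so 15 and 9 of 31 were called, near the shares of all genes. Ehhadh, the peroxisomal bifunctional enzyme for dicarboxylic acids, was lower by -1.86 ± 0.19 on CAS (adjusted p = 3.59e-12) and -2.02 ± 0.18 on WPI (5.16e-13). The fatty aldehyde dehydrogenase Aldh3a2 was higher on both, by 0.43 ± 0.15 on CAS (adjusted p = 0.0175) and 0.40 ± 0.14 on WPI (0.0323), and both calls ended over stem sums (0.122 and 0.205).

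Genes close to the members in sequence or place were called in both directions on CAS. At FAT-55 against FAT-20 the shares of all genes called were 43.3% on CAS and 26.6% on WPI. Of 10 other Cyp4 enzymes tested, 2 were lower and 2 higher at FAT-55 on CAS, and 1 was lower and 1 higher on WPI. These counts lay near the shares of all genes. Cyp4f14, a leukotriene hydroxylase, was lower on CAS (-0.78 ± 0.16, adjusted p = 4.81e-05). Of 9 genes next to the cluster, 4 were higher and 2 lower on CAS and 2 higher on WPI. The WPI count again lay near the share of all genes. Efcab14 was higher by 0.22 ± 0.04 on CAS (adjusted p = 3.8e-06). Of the 5 electron donors of P450 enzymes, 3 were higher on CAS and 4 on WPI, among them Cyb5b (0.61 ± 0.09 on CAS, adjusted p = 1.79e-07).

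Male-biased liver genes were read beside Cyp4a12a and Cyp4a12b. Of 25 others tested, 17 were lower and 0 higher at FAT-55 on CAS (median log2 fold change -1.28), and 2 were lower and 4 higher on WPI (median -0.17). The background was 43.3% on CAS and 26.6% on WPI, so the 6 of 25 called on WPI lay near the share of all genes. The organic anion transporter Slco1a1 was lower by -2.75 ± 0.38 on CAS (adjusted p = 3e-08) and at -0.62 ± 0.34 on WPI (0.174). Susd4 was lower by -1.50 ± 0.19 on CAS (adjusted p = 3.99e-09) and at -0.23 ± 0.18 on WPI (0.358). In the test of the difference between proteins, 12 of the 25 were called (background 6.82%), all toward a smaller fall or a rise on WPI. Susd4 stood at 1.27 ± 0.26 in that test (adjusted p = 0.00184). Over stem sums edgeR called 0 of the 25 there (13 at an unadjusted p under 0.05), with stem as a random effect limma called 5, and with the bile duct and immune marker score edgeR called 3, while the median difference was 1.09, 1.01 and 0.997. Over all genes these settings, in that order, called 2 higher and 0 lower of 17545, 49 and 61 of 15051, and 65 and 51 of 15051. At FAT-55 on CAS 14 of the 25 were lower and 0 higher over stem sums, where 2319 of 17545 genes were lower and 2726 higher. Of 20 female-biased genes, 10 were higher and 2 lower on CAS, and 6 were higher and 1 lower on WPI. Averaged over fat, 12 male-biased genes were higher on WPI and 1 lower (background 14.7%), or 2 and 0 over stem sums. Those sums called 284 of 17545 genes higher and 427 lower. Igfals, a growth hormone-dependent carrier subunit, was higher on WPI by 0.32 ± 0.05 (adjusted p = 6.33e-06). These lists were written with earlier results of the data known.

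In jejunum, Cyp4a10 rose with fat, the direction opposite to liver. Cyp4a10 ran on CAS from 0.582 to 19.5 CPM (median 10.8) at FAT-20, from 4.14 to 50 (median 19.9) at FAT-40 and from 13.7 to 141 (median 25.6) at FAT-55. On WPI it ran from 4.73 to 72.6 CPM (median 9.53), from 5.85 to 38.8 (median 19.4) and from 33.0 to 119 (median 54.2). The groups overlapped, but all FAT-55 mice lay above the FAT-20 median of their protein. It rose 5.68-fold at FAT-55 on CAS (2.51 ± 0.48 SE, adjusted p = 7.53e-05) and 4.16-fold on WPI (2.06 ± 0.45, adjusted p = 0.000268). At FAT-40 it rose 2.66-fold on CAS (1.41 ± 0.46, adjusted p = 0.018, or 0.0885 over stem sums) and stood at 0.52 ± 0.44 on WPI (0.391). WPI FAT-20 replicate 10, at 72.6 CPM, was far above its group: the log2 ratio of group means for FAT-55 on WPI was 2.05 with it and 2.66 without it, and the FAT-40 ratio was 0.52 with it and 1.12 without it.

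Cyp4a32 was near 1 CPM in jejunum and moved less. It ran on CAS from 0.136 to 1.34 CPM (median 0.623) at FAT-20, from 0.261 to 1.89 (median 1.07) at FAT-40 and from 0.490 to 2.30 (median 1.17) at FAT-55. The WPI libraries ran from 0.401 to 3.12 CPM (median 0.768), from 0.594 to 1.84 (median 1.03) and from 0.814 to 3.32 (median 1.67). These levels rest on 3 to 78 reads per library. The Cyp4a32 count was a median of 4.79% of the Cyp4a10 count, and whether it held reads of Cyp4a10 was not tested. Cyp4a32 rose 1.89-fold at FAT-55 on WPI (0.92 ± 0.27 SE, adjusted p = 0.00674), with all 12 mice above the FAT-20 median, and stood at 0.67 ± 0.29 on CAS (adjusted p = 0.0783).

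By count, 1 of the 2 tested members was higher at FAT-40 than at FAT-20 on CAS (background 25.1%) and 0 on WPI (background 25.8%; edgeR, 0 at an unadjusted p under 0.05 and 0 by DESeq2). At FAT-55 against FAT-20, 1 of 2 was higher on CAS (27.7%) and 2 of 2 on WPI (30.8%). Smooth muscle and adipose markers moved with fat in the same libraries. The summed level of 10 smooth muscle markers had medians of 1310, 620 and 807 CPM on CAS and 1480, 688 and 614 CPM on WPI, over a range of 352 to 4270 CPM. The summed level of 8 adipose markers had medians of 160, 105 and 112 CPM on CAS and 213, 123 and 131 CPM on WPI, over a range of 73.8 to 904 CPM. With scores of both lists as covariates, the rise of Cyp4a10 kept its call at FAT-55 on CAS, and it was 1.67 at FAT-55 on WPI (adjusted p = 0.0522) and 1.17 at FAT-40 on CAS (0.288), with Cyp4a32 at 0.66 at FAT-55 on WPI (0.342). The 4 calls against FAT-20 stayed under an adjusted p of 0.05 without CAS FAT-55 replicate 11 and without the 2 libraries holding ileal RNA.

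Between FAT-40 and FAT-55 edgeR called 0 of 2 members on either protein. The background was 0.0294% on CAS and 0.653% on WPI, 1 and 2 members had an unadjusted p under 0.05, and DESeq2 called 0 and 1. Cyp4a10 was at 1.54 ± 0.44 on WPI (adjusted p = 0.0727). Protein source made no called difference. Averaged over fat, Cyp4a10 was at 0.36 ± 0.25 (adjusted p = 0.378) and Cyp4a32 at 0.38 ± 0.16 (0.107), against a background of 15.3%. At the 3 fat levels, lowest fat first, edgeR and DESeq2 called 0 of 2, with 0, 0 and 1 at an unadjusted p under 0.05 and backgrounds of 6.23%, 0.571% and 3.7%. The interactions at FAT-40 and FAT-55 called 0 of 2 by both tools, with 0 at an unadjusted p under 0.05 and backgrounds of 0.0118% and 0.0%.

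The 4 other members were at or near 0 reads in jejunum. Cyp4a14, which gave 4313203 reads over 70 livers, gave 10 reads in all over 70 jejunum libraries, in 7 of them. Cyp4a12a gave 10 reads in 8 libraries, and Cyp4a12b gave 3 reads in 2. A count of 3 over all jejunum libraries corresponds to 0.00189 CPM. Cyp4a31 gave 181 reads in 50 libraries and did not exceed 0.959 CPM. Cyp4a10 made up a median of 95% of the Cyp4a reads in jejunum and 36.5% in liver, and Cyp4a14 made up a median of 55.5% in liver.

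Each mouse gave both tissues, so the difference of log2 CPM between jejunum and liver was taken within mice, a comparison chosen after these data were seen. For Cyp4a10 it rose from a mean of -8.81 ± 1.73 (SD, n = 11) at FAT-20 to -4.40 ± 1.35 (n = 11) at FAT-55 on CAS, and from -7.72 ± 1.19 to -4.39 ± 0.71 (n = 12 each) on WPI. The change was 4.41 on CAS and 3.34 on WPI (permutation test, two-sided, adjusted p = 2e-05 for each, over 4 tests; the unadjusted p of 1e-05 is the smallest that 100000 resamples can give). On CAS the FAT-55 and FAT-20 mice did not overlap. For Cyp4a32 the change was 1.43 on CAS (adjusted p = 2.67e-05) and 1.42 on WPI (8e-05), and the groups overlapped. These tests shuffled single mice and took no account of identifier stem, so their p-values do not measure the spread between stems. Within diets the liver and jejunum levels of Cyp4a10 showed r = 0.041 over 70 mice (rho = 0.008, permutation p = 0.75 and 0.95, adjusted 0.83 and 0.95), and r = 0.049 without the 2 mice farthest from the liver median. For Cyp4a32 r was 0.118 (rho = 0.118, permutation p = 0.33 and 0.34, adjusted 0.59 and 0.57), and 0.112 without 2 mice.

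**Figure D5:**
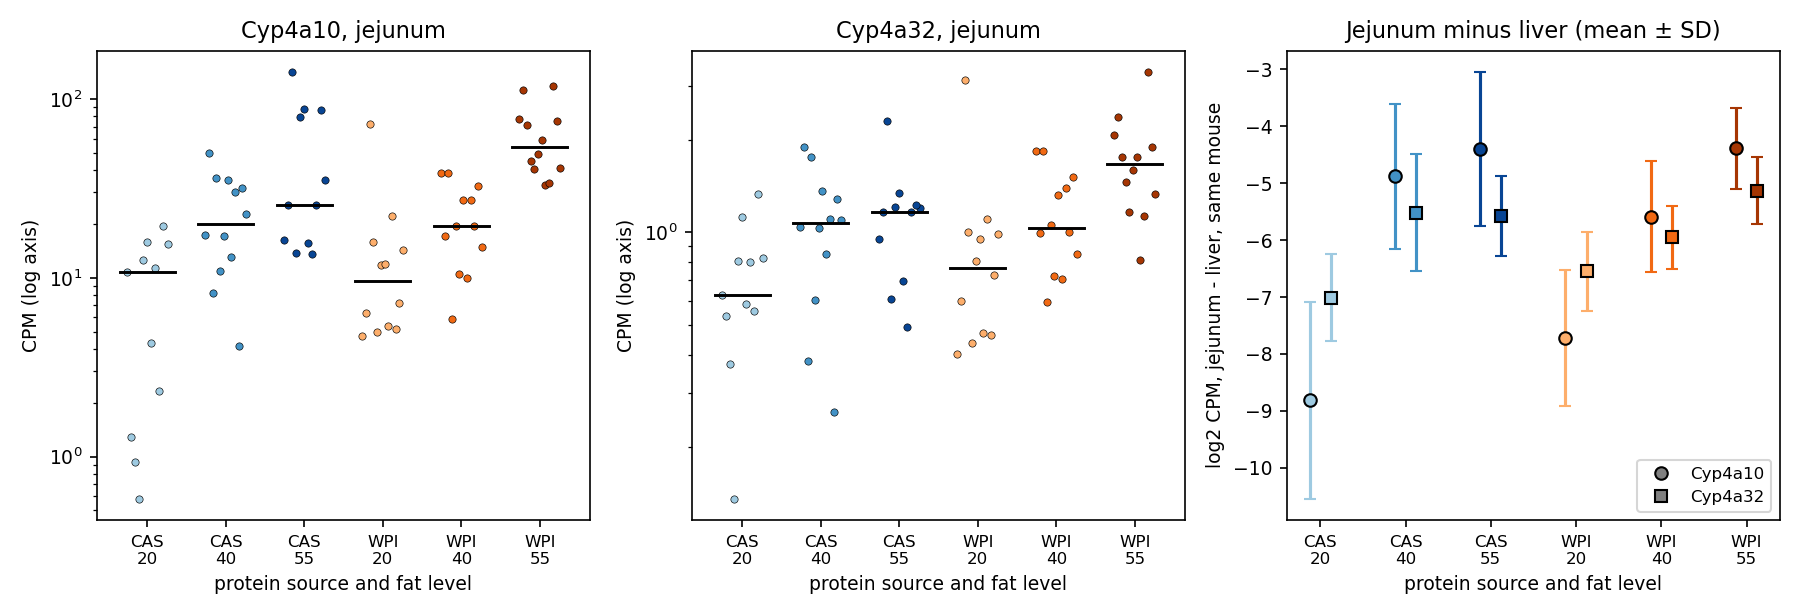
Cyp4a10 (left) and Cyp4a32 (middle) in jejunum by diet, in CPM on a log axis with 1 point per mouse and a line at the median, and the difference of log2 CPM between jejunum and liver of the same mouse (right, mean ± SD of 11 or 12 mice). Cyp4a10 medians are 10.8 and 25.6 CPM at FAT-20 and FAT-55 on CAS and 9.53 and 54.2 CPM on WPI.

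Other genes of the route moved with Cyp4a10 in jejunum. Of 31 genes of the steps after omega-hydroxylation, 27 were higher and 1 lower at FAT-55 on CAS and 25 were higher and 1 lower on WPI, with medians of 0.53 and 0.44. Of 46 PPARa targets, 29 were higher and 5 lower on each protein. Of the 16992 genes tested, 27.7% on CAS and 30.8% on WPI were called in either direction. The enterocyte marker medians were 33000, 41000 and 40300 CPM on CAS and 41300, 44500 and 45400 CPM on WPI, in order of rising fat, beside the lower muscle and adipose markers given above. With the muscle and adipose scores as covariates, 10 of the 31 were higher on CAS and 1 on WPI (medians 0.33 and 0.18), and 14 and 3 of the 46 targets were. Over all genes 4711 and 5231 were called without those scores on CAS and WPI, and 960 and 273 with them. Ppara was higher at FAT-55 by 0.74 ± 0.18 on CAS (adjusted p = 0.00183) and 0.44 ± 0.18 on WPI (0.0484, or 0.0862 without the 2 libraries holding ileal RNA), and neither call held with the muscle and adipose scores as covariates, where the CAS value had an adjusted p of 0.495 and the WPI value was -0.09. Pdk4 stood at 0.79 ± 0.46 on CAS (adjusted p = 0.198) and 0.87 ± 0.44 on WPI (0.127). With diet means subtracted, the genes most like Cyp4a10 among 14236 were Ces2g (r = 0.887), Retsat (0.884), Gstm7 (0.876), Acaa2 (0.861), Dhrs4 (0.857) and Cyp4f15 (0.851). For Cyp4a32 they were Cyp4f15 (0.758), Dglucy (0.751), Slc27a2 (0.744), Pxmp4 (0.733), Thrb (0.72) and Bche (0.719). The members' relation with Ppara within diets was r = 0.222 for Cyp4a10 (rho = 0.166, permutation p = 0.084 and 0.2, adjusted 0.21 and 0.51; 0.198 without 2 mice) and r = 0.248 for Cyp4a32 (rho = 0.199, permutation p = 0.04 and 0.11, adjusted 0.2 and 0.51; 0.216 without 2 mice).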

How the data were processed

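The authors deposited counts, whole reads per gene for 55536 genes in each tissue. The submitters' processing notes list the build GRCm38 and, as tools, STAR, DESeq2 1.24.0, Trim Galore 0.61, FastQC and cutadapt. The notes do not say how reads shared by copies were counted. The deposited counts hold reads at several places in an entry of their own, so such reads were credited to no gene. Entries naming no gene (23.81% in liver, 23.02% in jejunum; 7.71% and 8.00% were reads at several places) were left out. Of the IDs, 55450 matched a symbol in GENCODE M21.

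All genes were fitted with edgeR 4.0.16 (quasi-likelihood F-test, TMM, filterByExpr with minimum count 10 and total 15, 1 coefficient per diet, 15051 genes in liver and 16992 in jejunum). P-values were adjusted by Benjamini-Hochberg over all genes of a tissue and comparison, and an adjusted p under 0.05 was called; SE is the log2 fold change over the root of F, intervals are 95%. No adjustment was made across the 12 comparisons of a tissue. The scripts were tested on simulated data. P-values measure the spread between these mice. Single values used permutation tests. Alternatives used DESeq2 1.42.0 and limma 3.58.1. Members, lists and parts of the tests were chosen with earlier results of these data known. Named genes were the members, up to 3 per list with the smallest adjusted p in liver, the 5 reference genes, and the 6 genes most like each member; some of these are not reported here.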

Additional observations from a re-analysis of the deposited data

Results flagged for a closer look

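The fat response of 4 members in liver differed between protein sources by edgeR's interaction test. From FAT-20 to FAT-40 the difference (WPI minus CAS, log2) was 1.556 for Cyp4a31 and 0.791 for Cyp4a32, and from FAT-20 to FAT-55 it was 0.758 for Cyp4a10 and 2.178 for Cyp4a12b. None of the 4 kept an adjusted p under 0.05 with identifier stem as a random effect or over stem sums. Over all genes, stem sums called 0 of 17545 at FAT-40, and 2 higher and 0 lower at FAT-55.

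The fat response of Cyp4a10 and Cyp4a32 differed between jejunum and liver of the same mice by a permutation test. That test shuffled single mice and took no account of identifier stem. From FAT-20 to FAT-55 jejunum minus liver changed by 4.41 on CAS and 3.34 on WPI for Cyp4a10, and by 1.43 and 1.42 for Cyp4a32.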

How the results depend on the processing

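Over 12 comparisons in liver edgeR made 12 calls of members for protein source, 22 for fat level and 4 for protein by fat. Sums by stem gave 4 for protein source, 17 for fat level and 0 for protein by fat. Over all 17545 genes such sums called, for protein by fat, 0 at FAT-40, and 2 higher and 0 lower at FAT-55. Stem as a random effect gave 0, and marker scores 2, for protein by fat. In jejunum the count was 4 for fat level, against 7 with DESeq2, which also tested Cyp4a31, 2 with marker scores and 9 with copies summed, where a call of the sum counts for each of its 3 members. For protein source it was 0, and 1 with Arntl and Dbp as covariates, chosen after seeing the data. The other alternatives (other scaling, no filter, quality weights, libraries left out) kept these 6 counts within 1.5 times. Over single comparisons of members, 34 calls in liver were lost and 16 gained of 720 alternative values. With copies summed, where the value of a sum stood for each of its members, 8 were gained and 1 lost. The 1 value that turned was also of a sum, at 0.255 in place of Cyp4a31 from FAT-40 to FAT-55 on WPI. That sum joined Cyp4a10, Cyp4a31 and Cyp4a32, and the Cyp4a31 count in liver was a median of 2.16% of the Cyp4a10 count. It does not show a reversal of Cyp4a31 itself. In jejunum 4 were lost and 8 gained, and Ppara at FAT-55 on WPI turned to -0.086 with marker scores. Leaving out each library in turn, the share of Cyp4a12 reads kept its side of the threshold. The change of jejunum minus liver ran from 4.11 to 4.58 on CAS and 3.23 to 3.59 on WPI for Cyp4a10, and from 1.26 to 1.53 and 1.34 to 1.58 for Cyp4a32. No paired analysis was possible because, between diets, each group held other mice and replicate numbers follow accession order; tissues were paired by mouse. Depth limits Cyp4a32 in jejunum, and near-identical sequence limits Cyp4a12a and Cyp4a12b and also Cyp4a32, Cyp4a31 and Cyp4a10.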
